A study of Mus musculus with 4 samples.

Results

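The endoplasmic reticulum (ER) folding and translocation genes analyzed here encode the chaperones, disulfide isomerases, degradation factors, translocon and signal peptidase through which secreted and membrane proteins are made. They were picked by symbol from a written list, and all 43 listed genes had a level among the 17906 genes with one. The data are RNA-seq of MLE12 cells, a mouse lung epithelial line with alveolar type II features, with 2 libraries of lamin B1 KD (Lmnb1 KD) cells and 2 libraries of control cells. Both groups are stable MLE12 lines carrying a lentiviral shRNA, against Lmnb1 in the KD cells and a control shRNA in the control cells, and both were grown with 2 µg/ml puromycin. No source used here names the shRNA of the sequenced cells or says whether the replicates are separate cultures. The study asked which genes change after depletion of lamin B1, a protein of the nuclear lamina.

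The measurement used here is 1 value per gene, the authors' mean of normalized read counts over all 4 libraries of both groups, named the level below. It holds neither a spread between replicates nor a difference between lamin B1 KD and control cells, so no such difference is given and no value carries an error. To set genes of different length beside each other, the level was divided by the length of the merged exons in kilobases (level per kb). Lmnb1 had a level of 3946 (1332 per kb), but a mean over both groups does not check the labels. Of 10 alveolar type II markers, 7 had a level, with surfactant gene Sftpb at 6189 and transcription factor Nkx2-1 at 2667, whereas Sftpa1 was at 1.57 and Sftpd, Lamp3 and Slc34a2 had none. All 6 epithelial markers had a level, with Krt19 at 31695, Krt8 at 9525 and Cdh1 at 1463, whereas Epcam was at 77.4, Krt18 at 12.9 and Cldn4 at 3.32. Likewise 5 of 5 fibroblast markers had one, of which Dcn stood at 12256 and the others at or under 131. The highest endothelial and immune markers were Kdr at 14.7 and Cd68 at 51.4, and of 6 plasma cell and acinar markers 2 had a level, Bhlha15 at 7.64 and Sdc1, which epithelial cells also make, at 11128.

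Proteins enter the ER through the Sec61 channel, lose their signal peptide, and fold with the help of chaperones and enzymes that form disulfide bonds, while molecules that fail to fold are sent back to the cytosol for degradation (ER-associated degradation, ERAD). When unfolded protein accumulates, the sensors Atf6, Ern1 and Eif2ak3 start the unfolded protein response (UPR), in which the factors ATF6 and XBP1 act on the promoters of many of these genes. Alveolar type II cells, which secrete surfactant proteins, are known for a well developed ER.

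Most of these genes were far above the typical gene. Per kb, 40 of the 43 lay above the median protein-coding gene (124 per kb, 14144 genes), 20 were in the top 10% of all genes and 5 in the top 1%. That top 10% also holds 1716 of the 14144 protein-coding genes, and ranked among protein-coding genes only, 17 of the 43 were in the top 10%. The median of the 43 genes was 719.8 per kb, 5.83 times the median protein-coding gene, and their median percentile among all genes was 89.5. The 5 in the top 1% were the disulfide isomerase P4hb, the chaperone Calr, the isomerase Pdia3 and the chaperones Hsp90b1 and Hspa5. With merged exons only Sec11c, Sec61g and Derl3 lay under the median gene, and P4hb exceeded Derl3 by 625 times. The 79 other listed genes of the secretory pathway that had a level held a median of 711 per kb, 5.76 times the median gene, so that the median did not set the 43 genes apart from them.

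**Figure D1:**
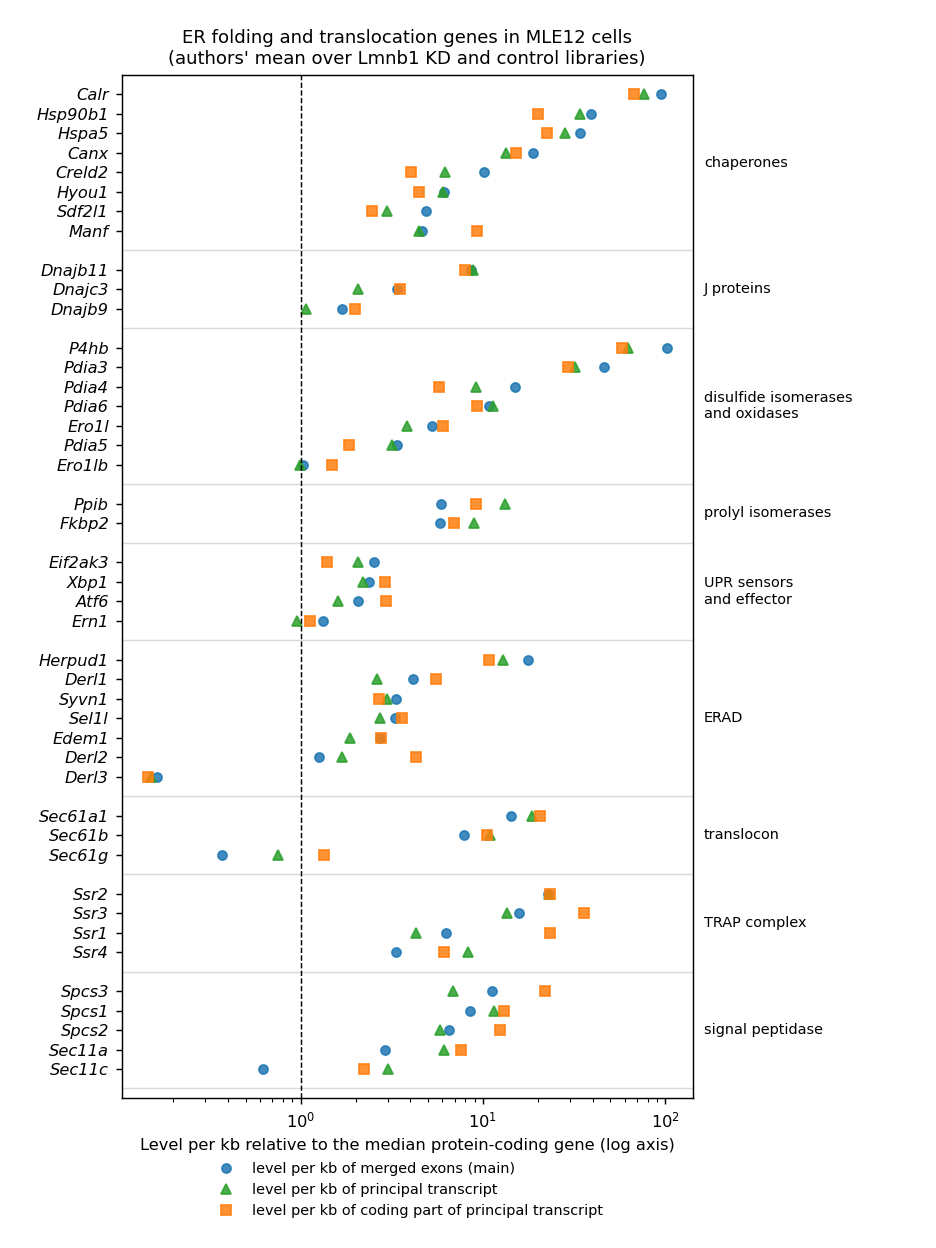
Level per kb of each ER folding and translocation gene relative to the median protein-coding gene (x axis, log scale; dashed line, the median gene), by role, with 1 point for each of 3 lengths that the level was divided by (merged exons, principal transcript and its coding part). P4hb and Calr lie farthest right and Derl3 is left of the line under each length, whereas Sec61g (0.37, 0.75 and 1.34), Sec11c (0.62, 3.001 and 2.23), Ern1 (1.33, 0.95 and 1.13) and Ero1lb (1.03, 0.99 and 1.49) cross it with the length chosen.

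**Figure D2:**
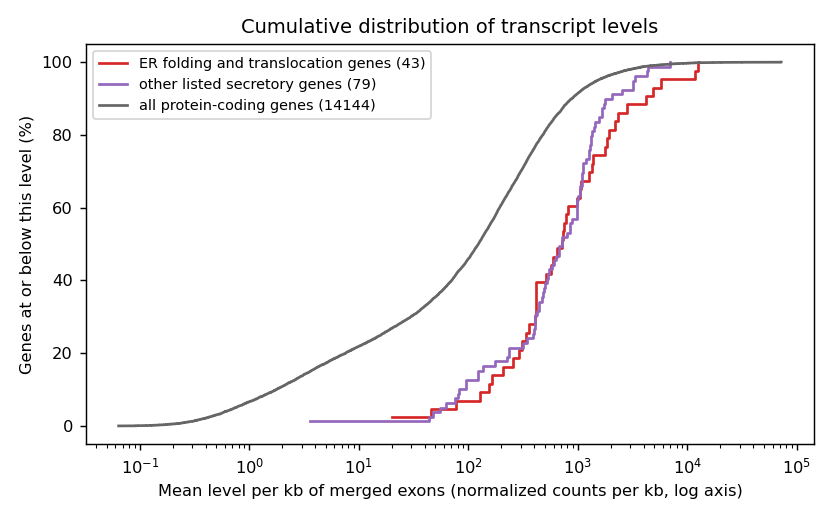
Share of genes (y axis, percent) at or under a given level per kb of merged exons (x axis, normalized counts per kb, log scale) for the 43 ER folding and translocation genes, 79 other listed secretory genes and 14144 protein-coding genes. The curves of both secretory sets lie to the right of all genes and run close to each other, with medians of 719.8, 711 and 124 per kb.

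A minority of the promoters carried the same element. The ER stress element (ERSE), through which ATF6 and XBP1 act together with NF-Y, was searched on both strands as CCAAT and CCACG separated by 9 bases of any kind, in a window that reaches 250 bases upstream and 50 bases downstream of each RefSeq start (GRCm38.p6). Of the 43 genes, 35 had a promoter entry, and 10 of these held an ERSE (28.6%), against 37 of all 27025 genes of the promoter table (0.137%), 19 of 11003 genes with a level and a promoter (0.173%) and 0 of 66 other listed secretory genes with one. The element was first defined in promoters of ER chaperone genes, so its frequency among the chaperones is not independent of that definition. The other 25 genes with an entry had no exact match. The 11 elements of the 10 genes are shown so that their fixed and variable bases can be compared. They are read on the strand that carries CCAAT, with 5 bases on either side and the fixed letters in capitals.
Hspa5 (chr2:34772020-34772048, plus strand): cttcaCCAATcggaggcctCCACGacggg
Calr (chr8:84847070-84847098, plus strand): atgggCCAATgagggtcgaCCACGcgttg
Derl3 (chr10:75893237-75893265, minus strand): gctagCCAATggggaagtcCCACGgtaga
Hsp90b1, upstream element (chr10:86705633-86705661, minus strand): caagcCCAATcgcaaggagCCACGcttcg
Hsp90b1, downstream element (chr10:86705528-86705556, plus strand): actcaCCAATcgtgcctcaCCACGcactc
Canx (chr11:50325795-50325823, minus strand): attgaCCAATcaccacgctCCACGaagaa
Pdia6 (chr12:17266486-17266514, plus strand): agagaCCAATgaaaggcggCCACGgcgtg
Ero1lb (chr13:12565677-12565705, minus strand): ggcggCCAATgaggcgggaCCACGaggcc
Dnajc3 (chr14:118937822-118937850, plus strand): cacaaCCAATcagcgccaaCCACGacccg
Creld2 (chr15:88819515-88819543, minus strand): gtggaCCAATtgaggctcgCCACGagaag
Syvn1 (chr19:6046527-6046555, plus strand): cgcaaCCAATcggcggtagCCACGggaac

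The elements had no fixed orientation, since 6 read along the gene and 5 on the opposite strand. Their last bases lay between 26 bases (Syvn1) and 194 bases (upstream element of Hsp90b1) upstream of the start, with a median of 108. Each spacer of 9 bases was between 66.7% and 77.8% G and C. The median was 66.7%, near the median of 64.2% over the 38 promoter entries of these genes. Hsp90b1 was the single gene of the whole promoter table with 2 exact elements, which face in opposite directions. Among all 37 genes with an ERSE, the ER folding and translocation genes were 10 (27.0%).

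**Figure D3:**
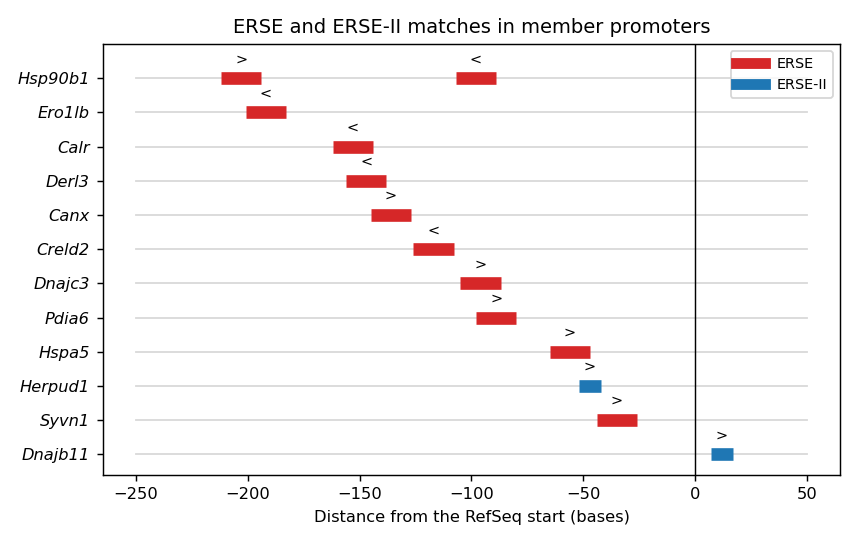
Positions of exact ERSE (red) and ERSE-II (blue) matches in promoters of ER folding and translocation genes, by distance from the RefSeq start in bases (x axis; grey lines, the window searched). Arrowheads point along the gene (>) or against it (<), and the ERSE lie between 212 and 26 bases upstream of the start.

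A related arrangement, ERSE-II, with ATTGG and CCACG 1 base apart, was found in 2 of the 35 genes. It was in 12 of 27025 genes (0.0444%) and in 1 of 66 other listed secretory genes. As with the ERSE, these shares may not be independent of the promoters in which the arrangement was first defined, and they rest on 2 genes. The 2 matches among the 35 are shown in the same way because these genes lack an exact ERSE.
Herpud1 (chr8:94386372-94386392, plus strand): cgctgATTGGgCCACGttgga
Dnajb11 (chr16:22857847-22857867, plus strand): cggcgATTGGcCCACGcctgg
The Herpud1 element spans bases 52 to 42 upstream of the start, and that of Dnajb11 lies downstream of it, from base 7 to base 17. ATTGG is the reverse complement of CCAAT, so that an ERSE-II also counts for both parts in the shares given next. The core motif TGACGTGG of ATF6 and XBP1 was in 0 of the 35 genes, against 0.714% of all genes and 5 of 66 other listed secretory genes (7.58%).

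The parts of the element were frequent as well. CCAAT was in a promoter of 26 of the 35 genes (74.3%), against 41.1% of all genes, and CCACG in 29 of 35 (82.9%), against 35.5%. The promoters were also richer in G and C, with a median of 64.2% over 38 entries, against 52.7% over all 32851 entries and 60.3% over entries of genes with a level, and CCACG was in 50.5% of genes with a level. The other listed secretory genes had a median of 59.2% G and C over 76 entries, and CCAAT was in 42.6% of genes with a level. The part of base composition in these shares was not tested. With up to 1 mismatch in the 10 fixed letters, 17 of the 35 genes matched (48.6%). The share was 1.72% of all genes and 7.58% of the other listed secretory genes. Gained among the 35 at that setting were 7 genes, Pdia3, Pdia4, Fkbp2, Herpud1, Sel1l, Derl2 and Sec61g.

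**Figure D4:**
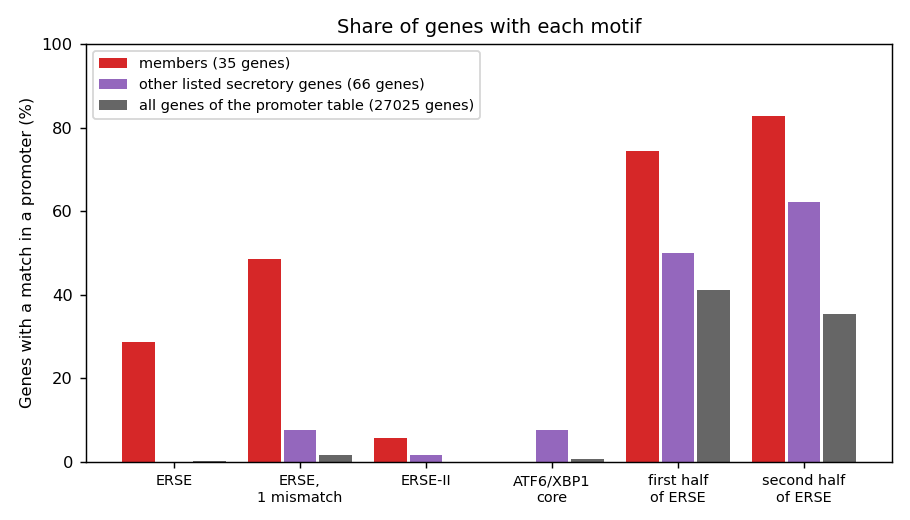
Share of genes (y axis, percent) with a match to each motif in a promoter, for 35 ER folding and translocation genes, 66 other listed secretory genes and all 27025 genes of the promoter table. The exact ERSE is in 28.6% of the ER folding and translocation genes, 0% of the other listed genes and 0.137% of all genes, whereas its CCAAT (left) and CCACG (right) parts are common in all sets.

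The chaperones, 8 genes, had a median of 1783 per kb, 14.4 times the median gene, and 6 of them were in the top 10%. This was the highest median of the 9 role groups with merged exons, but under each of the other 4 lengths the TRAP complex (10.9 to 23.4 times the median gene) lay above the chaperones (9.76 to 12.4 times). The translocon also did with the longest coding transcript (11.8 against 10.2) and the principal transcript (10.9 against 9.76). Prolyl isomerases did with the principal transcript (11.1), and signal peptidase with its coding length (12.4 against 12.2). Calr encodes calreticulin, the soluble lectin chaperone of the ER lumen, and had a level of 33909 (11774 per kb). Its membrane-bound counterpart calnexin, Canx, was at 10860.2 (2314 per kb), so that Calr exceeded Canx by 5.09 times per kb. Hsp90b1, the ER member of the HSP90 family, was at 19554 (4849.6 per kb), and 10.3% of its exon bases overlap 1810014B01Rik on the opposite strand. Hspa5 encodes BiP, the ER member of the HSP70 family and the chaperone that holds the UPR sensors inactive. Its level was 17899 (4232 per kb), with a ratio of Hsp90b1 to Hspa5 of 1.15 per kb that ran between 0.89 and 1.42 over the lengths. All of these lectin and heat shock family chaperones carry an exact ERSE as shown above.

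The remaining chaperones were lower. Hyou1, a nucleotide exchange factor of BiP, was at 5431 (751 per kb), 5.63 times under Hspa5 per kb. Creld2, an ER protein that is induced by ER stress, was at 1710.2 (1252 per kb), and it holds an ERSE. Manf, an ER stress-induced secreted factor that binds BiP, was at 2019 (573 per kb), and Sdf2l1, a partner of ER J proteins, at 663 (599 per kb). With Creld2 the exact ERSE was in 5 of the 6 chaperones with a promoter entry, and Sdf2l1 was the gene without it, although its promoter holds both CCAAT and CCACG.

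The 3 J proteins, which stimulate the ATPase of BiP, had a median of 419 per kb. Dnajb11, which binds unfolded substrates, was the highest at 3452 (1067 per kb). Dnajc3 was at 2156 (419 per kb), and Dnajb9 was the lowest at 534 (209 per kb). Per kb, Hspa5 exceeded Dnajb11 by 3.97 times and Dnajb9 by 20.2 times. Dnajc3 holds an ERSE and Dnajb11 an ERSE-II, whereas Dnajb9 had no exact match to either.

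The disulfide isomerases and oxidases, 7 genes, spanned nearly the whole range. P4hb encodes protein disulfide isomerase, also a subunit of collagen prolyl hydroxylase, and was at 36032 (12594 per kb, percentile 99.9), the highest of the 43 genes undivided and with merged exons, whereas Calr was higher under each of the other 4 lengths. Pdia3, the isomerase that works with calnexin and calreticulin, was at 17992 (5732 per kb). Both lacked an exact ERSE. Pdia4 was at 4439 (1850.2 per kb) and Pdia6, with an ERSE, at 5017 (1339.7 per kb). Pdia5 was the lowest isomerase at 1155 (417 per kb), 30.2 times under P4hb. The oxidase Ero1l, which reoxidizes the isomerases, was at 3419 (647 per kb), 5.09 times above its paralog Ero1lb at 846 (127 per kb). Ero1lb, with an ERSE, thus sat close to the median gene.

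The levels of the prolyl isomerases relative to each other depended on the length. Ppib, cyclophilin B, was at 2395 (725 per kb), and Fkbp2 at 1180.45 (719.8 per kb). The ratio of Ppib to Fkbp2 per kb was 1.01 with merged exons and ran between 1.32 and 3.47 under the other 4 lengths. The value of Ppib is uncertain, because 25.0% of its exon bases overlap exons of Snx22 on the opposite strand and no source used here states whether the counting was stranded. Snx22 itself had a level of 17.8.

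The sensors and the effector of the UPR had a median of 273 per kb, and none was in the top 10%. Eif2ak3 encodes the kinase PERK, which dampens translation, and was at 1879.5 (312 per kb). Xbp1, the transcription factor whose mRNA is spliced by the product of Ern1, was at 948 (292 per kb). Atf6, a transcription factor freed from the membrane by proteolysis, was at 2349 (255 per kb), and Ern1 at 1339 (164 per kb). The highest exceeded the lowest by 1.90 times with merged exons. Their order depended on the length, since per kb of the longest coding length Atf6 was at 1192, Xbp1 at 1179 and Eif2ak3 at 562. Levels per gene do not separate the spliced and unspliced forms of Xbp1. A mean over both groups also holds no unstressed state to compare with, so UPR activity was not read from these levels. No exact ERSE was found in the 3 genes with a promoter entry.

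The ERAD genes, 7 in all, had a median of 404 per kb and a wide range. Herpud1, which helps to assemble the ubiquitin ligase complex at the ER membrane, was the highest at 5114 (2192 per kb) and holds the ERSE-II shown above. Syvn1 encodes that ligase and was at 1995 (411 per kb), next to its partner Sel1l at 3460.3 (404 per kb), with a ratio of Sel1l to Syvn1 of 0.98 that ran between 0.91 and 1.34 over the lengths. Edem1, which acts on misfolded glycoproteins, was at 2183 (338 per kb). The derlins, membrane proteins of the exit route, differed most. Derl1 was at 1690.1 (508 per kb), Derl2 at 1254 (156 per kb) and Derl3 at 40.1 (20.1 per kb, percentile 35.7), so that Derl1 exceeded Derl3 by 25.2 times. Derl3 had the lowest level per kb of the 43 genes under each of the 5 lengths tried, and yet its promoter holds an exact ERSE.

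The Sec61 translocon is built from 3 subunits in equal number, but the levels of their transcripts were far apart. Sec61a1, the channel itself, was at 11925 (1771 per kb) and Sec61b at 1241 (977 per kb). Sec61g was at 112 (45.4 per kb), 39.0 times under Sec61a1 and 21.5 times under Sec61b per kb. With the other lengths the ratio of Sec61a1 to Sec61g ran between 15.4 and 62.5, so its size depends on the length while the order does not. The small subunits have near-identical copies elsewhere. Sec61b shares 84.0% of the longest coding transcript with Gm10320 (level 3.28), and Sec61g shares 22.6% with Gm10177 (level 5.12) and stretches with 3 other genes. Reads assigned to copies or discarded cannot be seen in these values, and their part in the low level of Sec61g was not tested.

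The TRAP complex, 4 proteins that assist translocation beside the channel, had a median of 1357 per kb. Ssr2 was at 5224 (2803 per kb), with 12.8% of its exon bases overlapping Gm10704 on the opposite strand, and Ssr3 at 8081 (1937 per kb). Ssr1 was at 8101 (777 per kb) and Ssr4 at 1282 (414 per kb). Their order is not settled, because the ratio of Ssr1 to Ssr4 was 1.88 with merged exons and ran between 0.52 and 3.81 over the lengths, and that of Ssr3 to Ssr2 between 0.59 and 1.55. None of the 3 genes with a promoter entry held an ERSE.

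The signal peptidase, which removes signal peptides, showed uneven levels for its alternative catalytic subunits. Sec11a was at 1661 (360.0 per kb) and Sec11c at 522 (76.7 per kb), and Sec11a exceeded Sec11c by 2.03 to 4.70 times over the lengths. Of the other subunits, Spcs3 was at 4796 (1384 per kb). Spcs1 was at 1626 (1052 per kb), of which 16.3% of the exon bases overlap Glt8d1 on the opposite strand, and Spcs2 at 3405 (807 per kb). Their order is not settled either, since the ratio of Spcs3 to Spcs1 ran between 0.60 and 2.64 over the lengths. Sec11c passed to above the median gene under the other lengths, at 2.11 to 3.26 times it, against 0.62 times with merged exons.

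Genes with and without an ERSE were not separated by level. The 10 genes with the element had a median of 1296 per kb, between Derl3 at 20.1 and Calr at 11774, against a median of 647 per kb for the 25 genes without it, between Sec61g at 45.4 and P4hb at 12594. The ranges overlapped almost entirely, and 6 of the 10 lay above the median of the others. The ratio of the medians was 2.00 with merged exons, 2.05 with the longest coding transcript, 1.52 with the principal transcript and 1.91 undivided. It was 1.17 with the longest coding length and 1.09 with the coding length of the principal transcript. By role, the element was in 5 of 6 chaperones, 1 of 3 J proteins, 2 of 7 disulfide isomerases and oxidases and 2 of 6 ERAD genes, and in 0 of 13 genes of the other roles with a promoter entry.

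The other listed genes of the pathway placed these levels beside their surroundings. Of 81 such genes 79 had a level, 68 lay above the median gene and 38 were in the top 10%, against 40 and 20 of the 43. The oligosaccharyltransferase genes had a median of 1049 per kb, between Ddost at 4330.4 and Dad1 at 318. Glycan trimming and glucosylation genes had a median of 977 per kb, between Mlec at 2031 and Uggt2 at 3.58, which was the lowest of all. The signal recognition particle and its receptor had a median of 982 per kb, between Srp14 at 2515 and Srp9 at 62.0, and both of these encode partners of one heterodimer. The other translocon factors had a median of 767 per kb, between Sec62 at 1411 and Tram2 at 79.8.

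Other lists hold folding factors outside the 43 genes. Other thioredoxin-fold proteins had a median of 992 per kb, between Txndc12 at 1669 and Tmx4 at 75.1. Other prolyl isomerases with the collagen chaperone had a median of 1317 per kb, between Fkbp10 at 3203 and Fkbp11 at 47.9. Other J proteins and exchange factors were the lowest list, with a median of 241 per kb between Dnajb12 at 601 and Dnajb14 at 43.3. Other ERAD factors had a median of 532 per kb, between Vcp at 1420, the ATPase that extracts substrates, and Edem3 at 225. Other UPR regulators had a median of 797 per kb, between the transcription factor Atf4 at 6942 and the protease gene Mbtps2 at 123. With merged exons Atf4 stood above each sensor and above Xbp1, the highest of which was 312 per kb.

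The 43 genes were spread over 18 chromosomes, with at most 6 on a single one, chromosome 11, which carries Canx, P4hb, Xbp1, Ern1, Derl2 and Sec61g. Over the 43 genes, level per kb and merged exon length had a Spearman's rho of -0.30, and -0.04 over 14144 protein-coding genes, which describes genes of 1 set of libraries and is no test. Stretches shared with another gene were found for 11 of the 43. In Eif2ak3, Hsp90b1, Manf, Ppib, Sec61a1 and Spcs1 the other gene also overlaps their exons, so these are overlaps seen again and not separate copies. Exon overlaps were found for 15 of the 43, of which 4 covered over 10% of the exon bases, in Ppib, Spcs1, Ssr2 and Hsp90b1. Each of these 4 overlaps is on the opposite strand, and reads of both strands may be mixed in these values. Shared stretches of at least 20.0% of the longest coding transcript, beside those of Ppib, Sec61b, Sec61g and Spcs1, were found for Spcs2 with Spcs2-ps (23.4%), Ero1lb with Gm18562 (21.7%) and Derl1 with Gm35638 (20.0%), so that these values are uncertain too.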

How the data were processed

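RNA of lamin B1 KD and control MLE12 cells was sequenced, with 2 libraries each. Reads were trimmed with Reaper and mapped to mm10 (GRCm38) with STAR, per the submitters' processing notes and the methods of the study, and analyzed with DESeq2. No source used here gives the tool versions, the read counter or whether it used strand. The deposited signal used here, named the level, is the authors' mean over all 4 libraries of counts divided by size factors. The table has 18018 rows, of which 112 have no level, and the levels sum to 22404229.5. The depth of each library is unknown, so no interval was computed. Its other 3 value columns hold the log2 fold change, p-value and adjusted p-value of the authors' own comparison. They were not used, and the planned test of lamin B1 KD against control was not run because no values per library were at hand. Group labels therefore enter no comparison.

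Gene symbols and identifiers were kept as deposited. Of the 17906 genes with a level, 17683 matched a GENCODE M21 gene model (GRCm38), which gave merged exon, longest coding transcript and coding lengths. Percentiles are over these genes. Promoters are the RefSeq entries on GRCm38.p6, 32851 in all, matched by symbol, with 2 genes matched by an older symbol. Atf6, Derl1, Hyou1, Manf, Sec11c, Sec61a1, Spcs3 and Ssr2 had no entry. Motifs were matched exactly on both strands and counted per gene over all its entries. Copies were searched with BLAST 2.17.0 for stretches of at least 100 bases at 95% identity. Python 3.11.15, pandas 2.3.3, numpy 2.4.6, scipy 1.17.1 and matplotlib 3.10.9 were used. Only the search for the ERSE, exact and with 1 mismatch, was tested on simulated sequences.

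The genes and lists were chosen with earlier results of these data known. Every one of the 43 genes is given with its level, and in each other list the genes of highest and lowest level per kb are named. The overlapping and copied genes with the largest shares are named as well and were chosen after these were seen. Alternatives were 4 other lengths, geometric means, level minimums of 2 and 10, protein-coding genes only and a mismatch in the ERSE. The lengths of the principal transcript (APPRIS) and of its coding part were chosen after seeing the data.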

Additional observations from a re-analysis of the deposited data

How the results depend on the processing

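Of 73 main values recomputed under other settings, 59 stayed within 1.5 times, and no setting put a role group median under the median gene. The bound of 1.5 times says little of the median percentile, which cannot rise that far. It fell from 89.5 to 86.0 with a level minimum of 10 and to 87.2 with protein-coding genes only. Under each of these settings 17 genes were in the top 10%, in place of 20. Relative to the median gene, with the longest coding transcript J proteins had 2.25 (3.39 with merged exons) and prolyl isomerases 9.29 (5.85), and with the principal transcript, chosen after seeing the data, these were 2.07 and 11.1. With the longest coding length disulfide isomerases and oxidases had 6.15 (10.8) and the TRAP complex 22.4 (11.0), and with the coding length of the principal transcript, also chosen afterwards, 6.07 and 23.4, while signal peptidase had 12.4 (6.53). The geometric mean gave 3.47 for the translocon (median 7.91) and 4.08 for signal peptidase. Up to 1 mismatch gave 17 genes with an ERSE in place of 10. The ratio of medians with over without an ERSE moved to 1.17 with the longest coding length and to 1.09 with the coding length of the principal transcript, from 2.00. The cause was not tested. Of 172 values of single genes under other lengths 68 moved by over 1.5 times, 38 of 43 genes lay above the median gene under each of the 5 lengths, and Derl3 alone lay under it each time. No paired analysis was possible because the values used are a mean over both groups, and leaving out single libraries was not run for the same reason. The count of C-terminal retention signals was not run. Depth limits cannot be given without values per library.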
